A study of Homo sapiens with 6 samples.

Results

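The U6 pseudogene copies described here are the transcripts of genes named RNU6 with a number and the letter P whose mean over the 3 control libraries was at least 10 RPKM (a read count scaled by transcript length and library size). The rule kept 149 of the 1289 such copies in the table, or 11.6%, each with 1 transcript. Because the copies were chosen by their control level, that level and every difference from the controls are given as descriptions, without a test over the copies. RNA-seq of rRNA-depleted total RNA was available for 3 libraries of human HEK293T-Rex cells that overexpress DIS3L2 D391N and for 3 control libraries. D391N is DIS3L2, a cytoplasmic exonuclease of oligouridylated RNAs, with a substitution in its catalytic site, and the construct was stably integrated and induced with doxycycline. The controls were HEK293T-Rex cells that the design text calls empty, and the sources used here do not say whether they received doxycycline. The labels name the line HEK293, a human embryonic kidney line, for all 6 libraries. The D391N libraries came from 1 cell line and the controls from another, so effects of the DIS3L2 construct and differences between the lines cannot be told apart.

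U6 is a small nuclear RNA of the spliceosome, and RNA polymerase III transcribes it from promoter elements that lie upstream of the gene. Its 3′ end is an oligo(U) stretch that is bound first by La, the product of SSB, and later by the ring of LSM2 to LSM8 proteins. The many U6 pseudogenes were scattered over the genome by reverse transcription of U6 RNA and its reinsertion, and most lack the upstream promoter, although they keep parts of the U6 sequence. Reads of U6 itself and of a copy cannot be told apart wherever both sequences match.

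The copies that the results turn on were compared with RNU6-1, one of the functional U6 genes, over the GENCODE transcripts of the GRCh37 annotation, matched by transcript identifier. RNU6-671P (chromosome 12, minus strand) is 70 nt long and is the same as nucleotides 1 to 70 of RNU6-1, so that every read from it could also come from U6. RNU6-1058P (chromosome 1, plus strand) holds nucleotides 12 to 54 unchanged, and RNU6-36P (chromosome 12, plus strand) nucleotides 11 to 107. RNU6-958P (chromosome 2, plus strand) shares 33 nt without a mismatch and RNU6-98P (chromosome X, minus strand) 51 nt. RNU6-20P (chromosome 16, minus strand) lies in an intron of KIFC3 on the same strand. RNU6-17P (chromosome 15, minus strand) is letter for letter the same as RNU6-18P. RNU6-1153P (chromosome 16, minus strand) lies opposite to RBL2, in an intron, and RNU6-1016P (chromosome 6, plus strand) in an intron of SENP6 on the same strand. RNU6-1153P had the largest difference between the conditions, and the longest stretch that RNU6-1016P shares with RNU6-1 is 15 nt. RNU6-3P, RNU6-4P, RNU6-5P and RNU6-6P have the same 107 letters as RNU6-1.

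The labels were checked first on the overexpressed gene. Summed over its transcripts, DIS3L2 reached 369.5, 467 and 512 RPKM in the 3 D391N libraries, against 11.8, 12.9 and 14.6 RPKM in the controls. Of 7 markers of HEK293 cells, 6 were at 1 RPKM or more in every library, and NEFM stayed between 0.241 and 0.638 RPKM. Among 6 markers of other cell types, 3 reached 1 RPKM in at least 1 library, and PECAM1 was listed at 0. COL1A1, at 2.03 to 4.05 RPKM, was the highest. PTPRC, a leukocyte marker, was at 1.34 to 1.77 RPKM, close to the HEK293 marker PAX2 at 1.31 to 1.93 RPKM. One read corresponded to 0.538 to 0.897 RPKM for a transcript of U6 length, estimated from copies without reads, and the shallowest library had 0.600 times the depth of the deepest. The share of transcripts under 200 nt in the sum of RPKM times length was 3.18%, 3.08% and 2.89% in the controls and 2.43%, 0.342% and 1.52% in D391N replicates 1, 2 and 3. That share and the copies' levels were lowest in the same library, D391N replicate 2, and the part of the short transcripts' share in the results below was not tested. The product is no read count for short copies, where 1 read was worth about the same RPKM at different lengths. In RNA from whole cultures, fewer cells that make an RNA and less of it per cell cannot be told apart.

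In the controls the 149 copies covered a wide range of levels. The median of their control means was 51.1 RPKM, with quartiles of 19.8 and 128 RPKM, a lowest value of 10.02 RPKM and a highest of 24971 RPKM. A level of 1000 RPKM or more was reached by 8 copies, 36 lay between 100 and 1000 RPKM, and 105 were under 100 RPKM. Of the latter, 39 were under 20 RPKM, close to the threshold. RNU6-1090P, RNU6-783P and RNU6-936P were just inside it, and RNU6-508P (9.95 RPKM), RNU6-227P (9.59 RPKM) and RNU6-652P (9.57 RPKM) just outside. Among the 1140 copies that were left out the median control mean was 0.518 RPKM, which lies between the levels listed for transcripts of that length with no read (0.305 to 0.463 RPKM) and the level of 1 read (0.538 to 0.814 RPKM) in the controls.

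RNU6-671P, the 70-nt copy, stood far above the rest. Its level was 23814, 18080 and 33019 RPKM in the controls and 12447, 299 and 4302 RPKM in D391N replicates 1, 2 and 3, and it was the highest of the copies in every library. It took between 43.4% and 49.9% of the copies' summed RPKM in the controls. By comparison, the 5 functional genes RNU6-1, RNU6-2, RNU6-7, RNU6-8 and RNU6-9 summed to 618, 617 and 196 RPKM in the controls and to 159, 37.5 and 37.7 RPKM in the D391N libraries. The level listed for this copy was therefore higher than that of the functional U6 genes, whose first 70 nucleotides it repeats. One read was worth about the same for short and for full-length copies: transcripts without reads were listed at a median of 0.327 RPKM when 60 to 80 nt long and at 0.305 RPKM when 100 to 107 nt long in control replicate 2.

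RNU6-1058P followed with 2884, 2846 and 6760 RPKM in the controls and 1238, 69.4 and 269 RPKM in the D391N libraries. RNU6-36P, which differs from U6 only near its 5′ end, was listed at 1704, 1031 and 2776 RPKM in the controls and at 1019, 55.1 and 474 RPKM with D391N. In both copies the groups did not overlap, and D391N replicate 1 came closest to the controls. RNU6-958P had 913, 1086 and 3268 RPKM in the controls against 257, 8.14 and 50.2 RPKM with D391N. RNU6-98P had 991, 978 and 2548 RPKM against 263, 2.59 and 62.2 RPKM, the middle value resting on fewer than 3 reads. Neither copy showed any overlap of the groups. RNU6-20P differed from these, since its 1448, 27.8 and 441 RPKM with D391N overlapped its 1540, 958 and 1175 RPKM in the controls.

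The controls differed among themselves by more than the estimation error of single libraries. The highest of the 3 values was in control replicate 3 for 109 of the 149 copies, in replicate 1 for 34 and in replicate 2 for 6. The most uneven was RNU6-1153P, with 94.6, 357 and 2062 RPKM. RNU6-707P was among the most even, with 85.4, 73.8 and 77.3 RPKM. The order of the copies was alike in the controls, with Spearman coefficients of 0.84 to 0.92 over the 149 copies, and less alike among the D391N libraries, where the coefficients were 0.61 to 0.82. These coefficients are across genes, which are not independent, and many copies share reads.

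**Figure D1:**
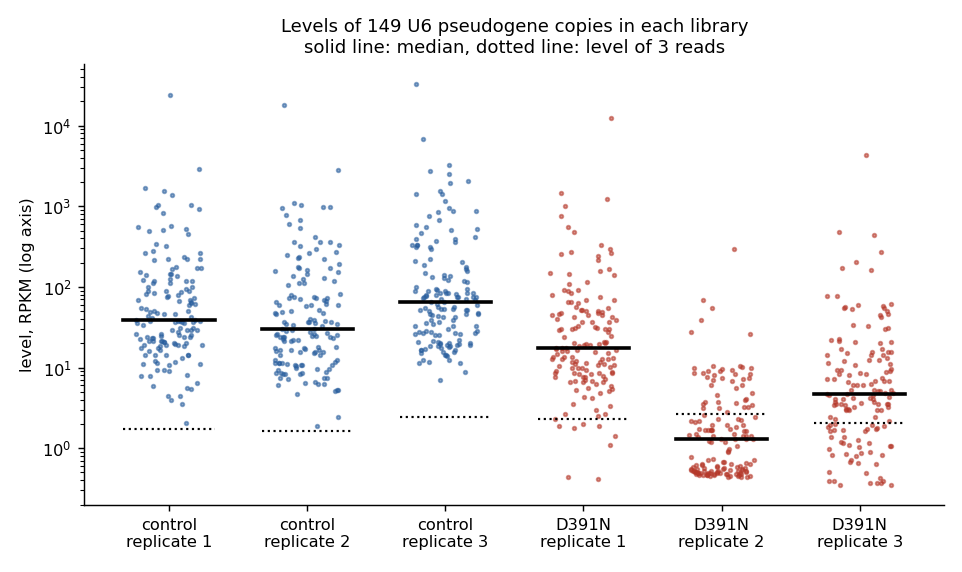
Level of each of the 149 U6 pseudogene copies (1 point per copy, RPKM on a log axis) in the 3 control and 3 D391N libraries, with the median as a solid line and the level of 3 reads as a dotted line. The medians were 38.5, 29.96 and 64.6 RPKM in the controls and 17.5, 1.29 and 4.68 RPKM in D391N replicates 1, 2 and 3, and in D391N replicate 2 most copies lay under the level of 3 reads.

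The next comparison asked how the copies stood in cells that express the inactive exonuclease. The copies were lower in the D391N libraries, by a median of −3.12 on the log2(RPKM + 0.1) scale (quartiles −4.26 and −2.33), where the median of all 54671 transcripts tested was −0.072. The difference was negative for 146 copies and positive for 3. In 95 copies, or 63.8%, each D391N library was below each control, which was so for 15.6% of all transcripts tested. No copy had each D391N library above each control, against 10.1% of all transcripts, and 54 copies overlapped. Since the controls chose the copies, nothing is read from these counts. The summed level was 47688, 37602 and 76134 RPKM in the controls and 23724, 859 and 7589 RPKM in the D391N libraries (53808 ± 19982 and 10724 ± 11751 RPKM, SD, n = 3 each).

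The D391N libraries differed widely. Against the mean of the controls, the median difference was −1.15 in replicate 1, −5.10 in replicate 2 and −3.30 in replicate 3 on the log2 scale, whereas over all transcripts tested it was −0.04, −0.0040 and −0.12. Replicate 1 was the highest D391N library for 144 copies and replicate 2 the lowest for 125. In replicate 1, 95 copies were below their lowest control, 45 lay within the range of the controls and 9 were above it. In replicate 2 the corresponding counts were 145, 3 and 1, and in replicate 3 they were 142, 5 and 2. Many of these values were at the limit of detection: in replicate 2, 106 copies had fewer than 3 estimated reads, in replicate 3 there were 44 and in replicate 1 there were 8. No copy had fewer than 3 reads in any control, where the rule kept only copies with a mean of at least 10 RPKM. With all such low values raised to the level of 3 reads, the median difference was −2.54.

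**Figure D2:**
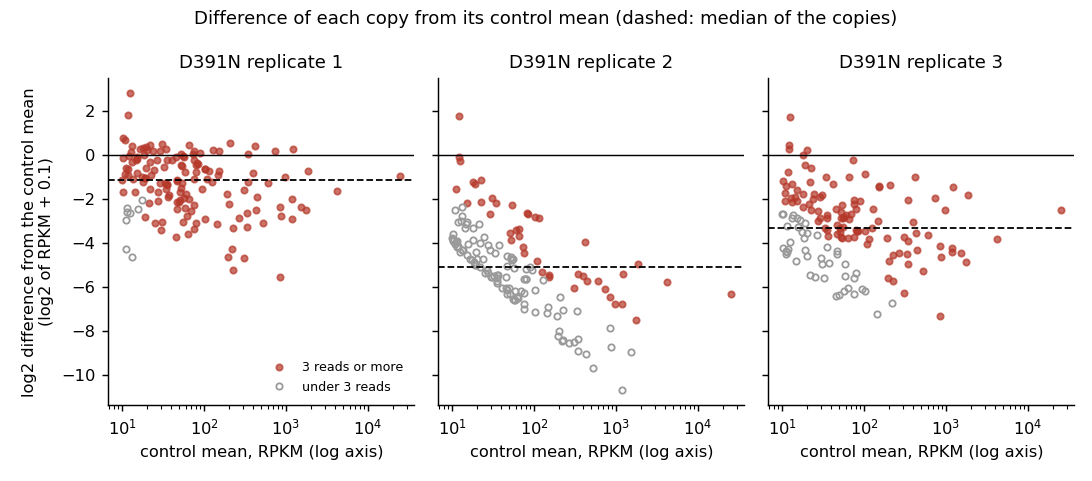
Log2 difference of each copy from its control mean in D391N replicates 1, 2 and 3 (y axis, log2 of RPKM + 0.1) against the control mean (x axis, RPKM, log axis), with open points for copies under 3 reads and the median of the copies as a dashed line at −1.15, −5.10 and −3.30. The points of replicate 2 that rest on fewer than 3 reads form a sloping lower edge, since the level of such a copy hardly depends on its control level.

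In the limma fit over the whole table, 1 of the 149 copies passed an adjusted p of 0.05, as did 0.0604% of all transcripts tested, and 103 passed an unadjusted p of 0.05, as did 17.6% of all transcripts. The copies were chosen by the control values that enter this fit, so nothing is read from these counts either. The copy that passed was RNU6-471P (chromosome 6, plus strand), with 0.44, 0.58 and 0.37 RPKM in the D391N libraries and 7.92, 8.55 and 16.7 RPKM in the controls. All its D391N values were under 3 reads, so it was at least 4.72-fold lower when its control mean was set against the mean level of 3 reads in the D391N libraries. Another 6 copies had fewer than 3 reads in all D391N libraries, with bounds of 4.75-fold to 6.66-fold. Nothing in the labels says that the replicates were separate cultures, so p-values measure the spread between these libraries. Without D391N replicate 1 the limma count was 107 copies, while 9.07% of all transcripts passed (4961 of 54671, against 33 with all libraries). The count was 0 when any of the other 5 libraries was left out, where 76 to 95 copies and 5742 to 9153 of all transcripts passed unadjusted.

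The 5 largest differences were in copies with clear signal in every control. RNU6-1153P had 8.79, 1.67 and 2.47 RPKM with D391N against 94.6, 357 and 2062 RPKM, a log2 difference of −6.91, or −6.69 with low values at 3 reads. RNU6-562P had 11.03, 0.675 and 3.57 RPKM against 174, 295 and 463 RPKM. RNU6-439P, RNU6-1080P and RNU6-1205P had D391N values of 0.463 to 10.2 RPKM and control values of 119 to 395 RPKM. None of these 5 copies overlapped between the groups.

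At the other end were 3 copies with a positive difference, all with control means under 13 RPKM. RNU6-33P, which shares nucleotides 13 to 107 with U6, had 69.6, 8.25 and 33.1 RPKM with D391N and 5.54, 24.6 and 6.91 RPKM in the controls (log2 difference 1.43). RNU6-963P, in an intron of ALDH7A1, had 27.9, 7.18 and 9.42 RPKM against 2.05, 25.1 and 8.71 RPKM. RNU6-1016P had 10.96, 38.95 and 15.6 RPKM against 14.5, 6.68 and 15.4 RPKM, and its highest value was in D391N replicate 2, where the other copies were mostly lowest. The groups overlapped in these copies. Next came RNU6-377P (−0.68) and RNU6-107P (−0.95), both in introns of expressed genes on the same strand.

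Because the controls entered the choice, the comparison was repeated with 1 control at a time left out of it. The control left out is from the same cell line as those that chose, so this repeat does not undo the choice by control level. When the copies were chosen by controls 2 and 3, 154 copies were kept and their median difference from control replicate 1 was −3.08. With control replicate 2 left out of the choice it was −2.52 over 161 copies, and with replicate 3 left out −3.77 over 135 copies. The medians of all transcripts tested against the same single controls were −0.08, −0.15 and −0.01. Chosen by a D391N mean of at least 10 RPKM instead, 73 copies remained, of which 70 were among the 149, and their median difference was −2.62. Among the 303 tested copies with a lower control mean the median was −1.06. In 97 of them (32.0%) each D391N library was below each control, against 15.6% of all transcripts tested. In all, 452 copies were tested with a median of −1.60, and limma called 2 of them, RNU6-471P and RNU6-1330P, against 0.0604% of all transcripts. These values rest on the filter of 1 RPKM over the 6 libraries, which a copy can pass through its controls alone: with a filter of 0.1 RPKM, or with none, the median over all 1289 copies was 0.037. The 2 calls became 165 without D391N replicate 1 and 0 without any other single library.

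The sequence of the copies was not used by the rule. The longest stretch shared exactly with RNU6-1 had a median of 30 nt in the 149 copies and of 17 nt in the other 1140 copies. None of the 405 copies whose longest shared stretch was under 15 nt was among the 149. The share of copies that were among the 149 was 1.90% for 15 to 19 nt, 10.9% for 20 to 24 nt, 19.8% for 25 to 29 nt, 51.4% for 30 to 39 nt, 65.4% for 40 to 49 nt and 89.7% for 50 nt or more. The median control level of all copies in these classes went from 0.482 to 81.8 RPKM, with 0.369 RPKM under 15 nt. Over all 1289 copies the Spearman coefficient between the stretch and the control level was 0.60, and within the 149 it was 0.38. The copies share reads and ancestry, so these are descriptions.

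Copies with long stretches still differed widely in level. The 26 copies among the 149 with 50 nt or more had control means between 10.96 and 24971 RPKM, and the 3 copies with such a stretch that were left out were RNU6-29P, RNU6-16P and RNU6-25P. At the short end, 6 copies shared under 20 nt, namely RNU6-1279P, RNU6-1016P, RNU6-834P, RNU6-1165P, RNU6-471P and RNU6-619P, and all of them had control means under 14 RPKM. Of these, RNU6-1016P and RNU6-834P, with the shortest stretches at 15 nt, were the 2 with the smallest differences between the conditions (0.72 and −1.17). Over the 149 copies the difference did not change steadily with the stretch. Its medians were −2.81 at 15 to 19 nt, −3.40 at 20 to 24 nt, −3.60 at 25 to 29 nt, −3.49 at 30 to 39 nt, −2.70 at 40 to 49 nt and −2.50 at 50 nt or more.

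**Figure D3:**
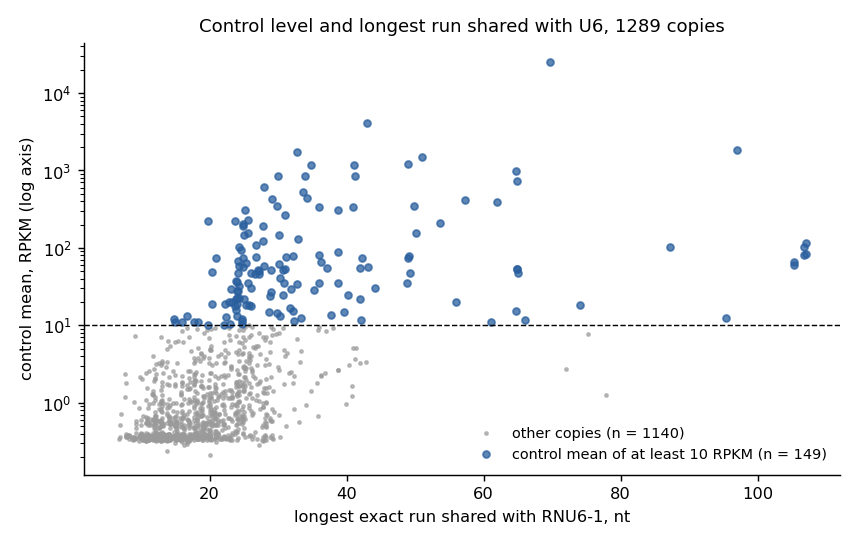
Control mean (y axis, RPKM, log axis) against the longest stretch shared exactly with RNU6-1 (x axis, nt) for all 1289 copies, with the 149 copies at or above 10 RPKM (dashed line) in blue and the other 1140 in grey. No blue point lies under 15 nt, and the highest point is RNU6-671P with 70 nt.

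The part of U6 that the copies kept was compared in windows of 20 nt, read on the transcript strand only. The windows found in most of the 149 copies were nucleotides 15 to 34 and 16 to 35 of RNU6-1, each held exactly by 93 of them (62.4%), against 9.91% and 10.2% of the other copies. The former was found in 16.0% of all copies and lies within the longest shared stretch of RNU6-671P, RNU6-1058P, RNU6-36P, RNU6-958P, RNU6-17P and RNU6-1153P. Nucleotides 6 to 25 were found in 27 of the 1289 copies (2.09%), and 25 of these (92.6%) were among the 149. This window was picked because that share was the highest of all windows. In the neighbouring windows, nucleotides 5 to 24 and 7 to 26, the share was 86.7% and 83.7%. A window that is present is a description of the sequence and not a site.

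The posterior variance tells how well the level of a copy was determined in 1 library. It is the variance of the natural log of RPKM that BitSeq gives, and for a copy with no read it is about that of an empty estimate. Over the controls it had a median of 0.028, was under 0.1 in 121 copies and over 0.5 in 15. In D391N replicates 1, 2 and 3 the medians were 0.084, 1.46 and 0.23. Set against transcripts with a similar product of RPKM and length in the same library, the ratio had a median of 0.752, and it was above 1 in 48 copies. For short copies 1 read was worth about the same RPKM at different lengths, so this product is no read count there. Set against the variance that counting alone gives for the estimated reads, the median was 1.30 in the controls, and 90 copies were at 1.5 or less.

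The 17 copies whose variance was more than 10 times that of counting were mostly copies that cannot be told apart by sequence. A stretch of 50 nt, the length of the reads, that occurs in no other U6 sequence of the annotation was lacking in 12 copies, and 11 of these were among the 17. These 11 copies form 4 groups of identical sequence, and their variance was 73.1 to 1456 times that of counting. The remaining copy without a unique stretch was RNU6-671P, with a ratio of only 1.59. In the 87 copies in which every stretch was unique the median ratio was 1.23, and in the 50 with some unique stretches it was 1.39. RNU6-5P, RNU6-41P and RNU6-6P had the highest mean variances (1.58, 1.57 and 1.49), about that of copies with no reads despite control means of 81.8, 15.3 and 114 RPKM. The lowest were those of RNU6-671P, RNU6-1058P and RNU6-20P (0.00093, 0.0030 and 0.0073). For RNU6-671P, which has no unique stretch, a low variance does not show that the reads came from this copy.

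**Figure D4:**
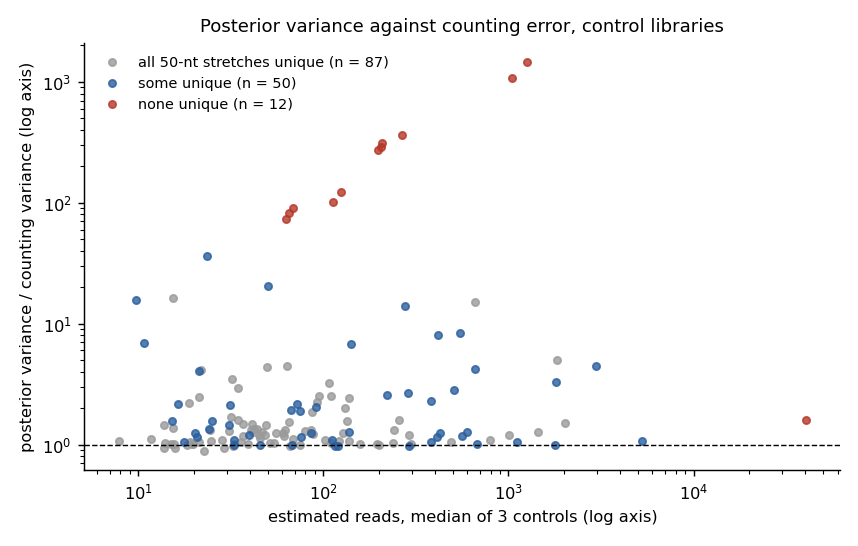
Posterior variance divided by the variance expected from counting alone (y axis, log axis, median of the 3 controls) against the estimated reads (x axis, log axis, median of the 3 controls) for the 149 copies, coloured by the share of their 50-nt stretches that occur in no other U6 sequence. The 12 red copies have no unique stretch, and 11 of them lie between 73.1 and 1456 whereas RNU6-671P lies at 1.59.

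For identical copies only the sum over the group can be read. RNU6-3P, RNU6-4P, RNU6-5P and RNU6-6P together with RNU6-1, RNU6-2 and RNU6-9, which have the same letters, summed to 840, 948 and 107 RPKM in the controls and to 312, 63.2 and 36.5 RPKM with D391N. Control replicate 3 was lowest here and overlapped with D391N replicate 1, although it was the highest control for most copies. RNU6-17P and RNU6-18P summed to 2421, 1012 and 1721 RPKM in the controls and to 1229, 17.9 and 336 RPKM with D391N, and the groups overlapped. RNU6-11P and RNU6-37P summed to 142, 127 and 104 RPKM against 33.5, 11.7 and 17.5 RPKM. RNU6-12P, RNU6-13P and RNU6-32P summed to 225, 73.1 and 160 RPKM against 55.1, 5.01 and 10.4 RPKM. The groups did not overlap in the last 2 sums, and the group sums differed by −2.29 to −3.27 on the log2 scale, a range that holds the median of the single copies.

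For most copies the posterior variance was smaller than the spread between libraries of 1 group. On the natural log scale the variance between the 3 controls had a median of 0.247 and was 8.16 times the mean posterior variance in the median copy. It was the larger of these variances in 136 of the 149 copies, in 86 of the 87 with every stretch unique and in 4 of the 12 with none. Between the D391N libraries it had a median of 2.13, which was 3.83 times the posterior variance in the median copy, and it was the larger in 125 copies.

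Whether a copy lies in an intron of a host gene was taken from the annotation. Of the 149 copies 87, or 58.4%, lay in an intron without touching an exon of the host, and 49 of these were on the host's strand. Among the other 1140 copies the share in introns was 62.5%, and 32.6% were on the host's strand, against 32.9% of the 149. The median control mean was 34.7 RPKM for copies on the host's strand, 53.8 RPKM for those on the opposite strand (n = 38) and 51.1 RPKM for the 62 copies outside introns, of which 3 touched an exon. The 5 highest copies with a host lay in ENSG00000257657, ST3GAL3, PAFAH1B2P2, THADA and KIFC3, a list that holds a lncRNA and a pseudogene beside protein-coding genes.

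Copies on the host's strand differed less between the conditions. Their median difference was −2.36, that of copies on the opposite strand −3.30 and that of copies outside introns −3.37. With low values at 3 reads the medians were −2.20, −2.57 and −2.79. The order held in each D391N library: in replicate 1 the medians were −0.66, −1.27 and −1.47, in replicate 2 −4.06, −5.35 and −5.52 and in replicate 3 −2.51, −3.48 and −3.57. The D391N libraries were all below the controls in 24 of the 49 copies on the host's strand, in 25 of 38 on the opposite strand and in 46 of 62 outside introns. Of all transcripts tested this was so for 15.6%, and since the controls chose the copies, nothing is read from these counts. For all 87 intronic copies the median was −2.63, which is 0.74 above that of the others. With the threshold at 20 RPKM this difference was 0.38. These are medians over copies, with no test, and the libraries are the same for all classes. The longest stretch shared with U6 was alike in the classes, with medians of 29, 30 and 31 nt. Control levels were not alike, and the difference was larger in copies with more reads in the controls. Its median was −2.37 under 30 estimated reads, −3.17 at 30 to 100 and −3.72 at 100 or more. With low values at 3 reads these medians were −1.69, −2.59 and −3.65. A copy with few reads in the controls can fall only to the level of no read. Its difference is limited by this, so part of this order was fixed in advance. Copies on the host's strand had the lowest median control mean (34.7 RPKM), and the part of level in the order of the classes was not tested.

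**Figure D5:**
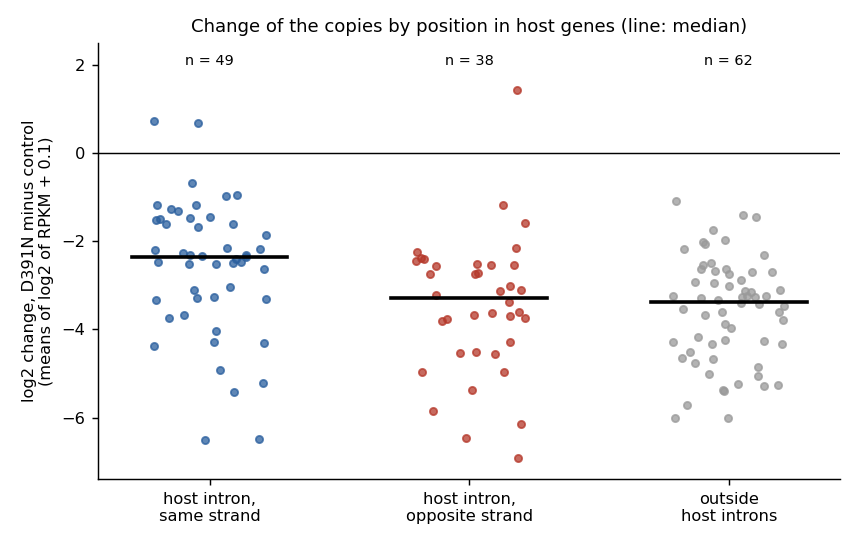
Log2 change of each copy (y axis, mean of the D391N libraries minus mean of the controls, log2 of RPKM + 0.1) for 49 copies in an intron on the host's strand, 38 in an intron on the opposite strand and 62 outside host introns, with the median as a line. The medians were −2.36, −3.30 and −3.37, and the 3 points above 0 are RNU6-33P, RNU6-1016P and RNU6-963P.

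Reads from the pre-mRNA of a host and from a copy inside it on the same strand cannot be told apart. The strand of the reads is not given in the sources used here as part of the counting, so the same holds for copies on the opposite strand. For 44 copies on the host's strand the host had a level, with a median of 13.7 RPKM in the controls and a median log2 difference of 0.03 between the conditions. The copy was the higher of the pair in most cases, since the host exceeded it in 13. Across these 44 pairs the level of host and copy had a Spearman coefficient of −0.07, and their log2 differences between the conditions had one of −0.14. In the 27 pairs whose host was at 10 RPKM or more the median difference of the copy was −1.85, and in the others it was −3.11, a split chosen after the values were seen. SENP6, the host of RNU6-1016P, stood at 85.9, 130.8 and 104 RPKM with D391N and at 86.2, 92.4 and 69.7 RPKM in the controls, highest in the same library as the copy. ALDH7A1, the host of RNU6-963P, was at 108 RPKM in the controls on average and GIGYF2, the host of RNU6-107P, at 152 RPKM. A highly expressed host was not always beside a small difference: RNU6-826P in IGF2BP1, itself at 91.8 RPKM, had 575, 532 and 1404 RPKM in the controls and 148, 8.52 and 42.4 RPKM with D391N.

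The study also sequenced RNAs bound to D391N by CLIP, an experiment that crosslinks a protein to its RNAs, and its list of bound RNAs names 30 of the 1289 copies. Among the 149 were 7 of these (4.70%), and among the other copies 23 (2.02%). They are RNU6-98P, RNU6-702P, RNU6-11P, RNU6-37P, RNU6-384P, RNU6-1329P and RNU6-1315P. RNU6-702P had 219, 107 and 136 RPKM in the controls and 168, 3.24 and 53.1 RPKM with D391N, and the groups overlapped. The median difference of the 7 was −2.75, between −5.26 and −2.07, and that of the other 142 copies was −3.19. Without D391N replicate 2 the gap between these medians was 0.04, and without control replicate 2 it was 0.76. With 7 copies, of which RNU6-11P and RNU6-37P have the same sequence, no difference could be read.

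Pseudogenes of other small RNAs were compared by the same rule. Of 285 copies of 7SK, another RNA polymerase III transcript, 8 had a control mean of at least 10 RPKM, with a median difference of −1.99. Of 70 copies of U2, a small nuclear RNA made by RNA polymerase II, 23 passed with a median of −1.88, and of 600 copies of 7SL, the RNA of the signal recognition particle, 39 passed with −0.41. In D391N replicate 2 these medians were −2.69, −3.18 and 0.12, against −5.10 for U6 copies. The U6 copies were the shortest, with a median length of 107 nt against 191 nt for U2, 289 nt for 7SL and 320 nt for 7SK. The difference between the families was not tested.

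The genes that make, process and bind U6 were looked at as a list of 25. Their 108 tested transcripts gave 0 calls in either direction with limma, and 19 passed at an unadjusted p of 0.05, a share near the 17.6% of all transcripts. Summed per gene, the median log2 difference was −0.06, between −0.63 and 0.85. The D391N libraries were all below the controls in TUT1, SNAPC1, SNAPC2 and SNAPC3 and all above them in LARP7, PRPF4B and ZNF143. These 4 and 3 of 25 genes are near the shares over all transcripts (15.6% and 10.1%) and are no result about the list. TUT1 adds uridines to the U6 3′ end, and the SNAPC proteins are subunits of the factor that recruits polymerase to snRNA promoters. SSB, which encodes La, was at 222, 605 and 574 RPKM with D391N and at 242, 267 and 205 RPKM in the controls. LARP7, a La-related protein of the 7SK particle, was at 107, 152 and 165 RPKM against 90.6, 89.9 and 80.3 RPKM. Of the subunits of the LSM ring, LSM4 (122 ± 4.65 against 127 ± 12.5 RPKM, SD, n = 3 each) and LSM8 (66.0 ± 32.4 against 91.7 ± 7.14 RPKM) overlapped between the groups. None of these genes was called.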

How the data were processed

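RNA-seq of 3 D391N and 3 control libraries was used, grouped by their labels. The authors depleted rRNA, made libraries with the ScriptSeq kit, sequenced single reads of 50 nt, trimmed adapters (cutadapt), aligned to Ensembl transcripts of GRCh38 (Segemehl) and ran BitSeq. For 207167 transcripts the deposited table gives 2 values for every library, a posterior mean on the natural log scale of RPKM and a posterior variance. BitSeq splits a read with several matching transcripts between them, so near-identical copies depend on each other. Versions of the aligner and of BitSeq are not given in the sources used here.

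Natural logs were exponentiated to RPKM. Symbols were found for 88.2% of 63190 gene identifiers, and lengths for 90.2% of transcripts. Transcripts whose mean reached 1 RPKM across all 6 libraries, 54671 in all, were tested on log2(RPKM + 0.1) with limma 3.58.1 (empirical Bayes with trend) in R 4.3.3, with a Benjamini-Hochberg adjusted p under 0.05. A fold on this scale understates the change of low copies. The fit was tested on simulated data with noise independent between transcripts and libraries, so deviations shared by many transcripts of 1 library were not covered. Other steps used Python 3.11.15 with pandas 2.3.3, numpy 2.4.6, scipy 1.17.1, biopython 1.88 and matplotlib 3.10.9. Read totals were not used. The RPKM of 1 read was taken from U6 copies whose variance is that of an estimate without reads, the level of 3 reads served as the floor, and both cover counting error only. The variance expected from counting is the trigamma function of reads plus 0.5. Sequence comparisons and positions are from a GRCh37 annotation (GENCODE v44lift37), matched to the GRCh38 transcripts by identifier. The sequences themselves are not reported here. From the supplementary CLIP list only identifiers were used.

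The copies and lists were chosen with earlier results of these data known. Named are the 5 highest copies, the 3 on either side of the threshold, the 5 largest differences in each direction, the 3 lowest and 3 highest variances, the 3 highest in the CLIP list, the 5 highest with a host, the functional U6 genes and the highest genes of the list. Other names were chosen after their values were seen. With 3 libraries against 3 an exact permutation test cannot go below p = 0.10, and none was run. Alternatives were other pseudocounts, filters, scalings and thresholds, a replicate block and each library left out. Same-numbered libraries deviated with correlations of 0.087, 0.055 and −0.11, so the numbers do not pair them.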

Additional observations from a re-analysis of the deposited data

How the results depend on the processing

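The median difference of the copies was negative under every alternative run, from −4.10 without D391N replicate 1 to −2.28 without D391N replicate 2. All of these alternatives kept copies chosen by a level, in most of them the control level, and choice by control level favours a negative sign. The shared sign is therefore a description and no test, and the median over all U6 copies is given below. Their summed level differed by −2.33 (log2 ratio of means), from −3.67 without D391N replicate 1 to −1.78 without replicate 2. The intronic copies stayed above the others, by 0.57 to 0.84 with 1 library left out and by 0.38 to 1.03 under the other alternatives. The gap of CLIP-listed copies was 0.04 to 0.76 with 1 library left out.

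The number of calls depended on single libraries. Over the whole table limma called 33 of 54671 transcripts, 4961 without D391N replicate 1, 2 to 17 without any other library, 142 with a pseudocount of 1 RPKM and 7 with the replicate block. Of the 149 copies limma called 1, and with 1 library left out between 0 and 107 (107 without D391N replicate 1, and 0 without any other library, where 76 to 95 passed an unadjusted p of 0.05). It called 8 with a pseudocount of 1 RPKM, and 0 with a filter of 5 RPKM, without a filter or with the replicate block, where 97, 109 and 128 passed unadjusted. Over all tested U6 copies it called 2, and 0 to 165 with 1 library left out (165 without D391N replicate 1). The count was 4 without trend, 13 with a pseudocount of 1 RPKM, 1 with a filter of 0.1 RPKM, and 0 with a filter of 5 RPKM, without a filter or with the replicate block, where 106, 240 and 240 copies passed unadjusted. The replicate block leaves fewer degrees of freedom, and the numbers did not pair the libraries.

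The median over all U6 copies was −2.74 with a filter of 5 RPKM and 0.037, a change of sign, both with a filter of 0.1 RPKM and without one. The latter settings take in every U6 copy, 808 of which had control means under 1 RPKM, and 1 read is worth more RPKM in a shallower library. Chosen by the D391N mean, 73 copies remained. The ratio of posterior variance to that of other transcripts (0.752) was 0.744 with a threshold of 5 RPKM, 0.738 with 20 RPKM, 0.721 when chosen by the D391N mean and 1.30 against counting alone, a setting chosen after seeing the data, as was the setting of low values to 3 reads. Low read numbers limit the D391N values: 106 copies had fewer than 3 reads in D391N replicate 2 (0.600 times the depth of the deepest library). None had in control replicate 3 (0.661 times), but the rule chose the copies by their control level, so this contrast says nothing about depth.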
